A study of Mus musculus with 8 samples.

Results

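The genes for laminins, the basement membrane linkers and the integrins, 34 of the 24341 genes with values, were compared between 5 WT and 3 *Lats1/2*-null pancreas buds of mouse embryos at E11.0, a stage of about 40 somites. The members are a named list of gene families: 10 laminin chains, 4 linkers (2 nidogens, perlecan and agrin), 13 integrin alpha subunits and 7 integrin beta subunits. The labels give no allele for the WT buds, while the methods describe controls of mutant embryos in general as littermates that were either WT or heterozygous, and the strain is given as CD1 for both groups. The mutant buds, named *Lats1/2*-null in the labels, carried *Pdx1Creearly* with floxed *Lats1* (f/f) and floxed *Lats2* (f/f). The *Pdx1* promoter drives this Cre in pancreatic progenitors, so the mesenchyme, vessels and blood of the bud are not its targets. The mesenchyme was pulled away by hand before RNA was isolated, and each bud gave 1 library of total RNA depleted of ribosomal RNA. Values are FPKM, fragment numbers scaled to transcript length and to library size, so levels of different genes can be set side by side.

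Basement membranes are thin sheets of matrix on which epithelia, endothelia and some mesenchymal cells rest. Laminins are trimers of an alpha, a beta and a gamma chain that self-assemble into a network at the cell surface, and nidogens, perlecan and agrin tie this network to collagen IV and to other matrix proteins. Integrins are receptors made of an alpha and a beta subunit, and the pair decides whether a cell binds laminin, collagen, or ligands that carry the RGD peptide. In the pancreas, laminin lines the epithelial cords and supports their growth, branching and differentiation.

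The buds differed in the levels of markers of several cell types. Over all 13777 genes tested, 6.29% were higher and 4.99% lower in *Lats1/2*-null buds at an unadjusted p under 0.05 in limma. Without *Lats1/2*-null bud 3, 481 were higher and 300 lower of 13699 genes. Of 18 epithelial markers, 17 had an unadjusted p under 0.05 and all 18 were higher in *Lats1/2*-null buds (median log2 fold change 1.08, and 0.68 with 16 genes under 0.05 without *Lats1/2*-null bud 3). Their summed level was 244 to 315 FPKM in WT buds and 558, 484 and 1174 FPKM in *Lats1/2*-null buds 1, 2 and 3. Mesenchymal markers, 21 in all, summed to 1206 to 1353 FPKM in WT buds and to 1046, 1211 and 945 FPKM in *Lats1/2*-null buds, so RNA of mesenchymal genes was present in every bud after the dissection. *Vim* alone, which was higher in *Lats1/2*-null bud 3 (602 FPKM) than in any other bud, made up much of that sum, and the other 20 markers summed to 724 to 930 FPKM in WT buds and to 553, 747 and 343 FPKM in *Lats1/2*-null buds. At a slightly later stage the paper reports ectopic VIM protein in the mutant epithelium, so *Vim* may not mark mesenchyme alone in those buds. Of the 20 mesenchymal markers tested, 18 were lower in *Lats1/2*-null buds, 5 of them at an unadjusted p under 0.05 (median log2 fold change -0.46, and -0.19 with 3 genes without bud 3). Endothelial markers, 18 in all, summed to 243 to 405 FPKM in WT buds and to 266, 252 and 166 FPKM in *Lats1/2*-null buds. All 18 were lower, 6 of them at an unadjusted p under 0.05 (median -0.40, and -0.25 with 2 genes without bud 3). *Lats1/2*-null bud 3 thus stood apart, with the highest epithelial sum and the lowest mesenchymal and endothelial sums, and results that rest on it are given with and without it. *Pdx1*, which defines the early pancreas, was present in every bud, at 9.96 to 21.9 FPKM in WT and 24.3, 15.3 and 48.6 FPKM in *Lats1/2*-null buds. *Lats1* itself was lower in *Lats1/2*-null buds (12.3, 13.8 and 10.1 FPKM) than in any WT bud (14.1 to 16.6 FPKM). Its two-sided p of 0.0179 in an exact permutation test is the smallest that 56 splits allow. *Lats2* overlapped (11.1 to 13.4 against 11.6 to 14.7 FPKM). FPKM cover the whole gene and do not isolate the floxed exons. In a bulk sample, fewer cells of a type and less RNA per cell cannot be told apart.

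In WT buds, the members ran over more than 3 orders of magnitude. *Itgb1*, the beta subunit shared by most integrins, was the most abundant at 102.9 ± 8.81 FPKM (SD, n = 5). It was followed by *Nid1* (49.1 ± 4.99 FPKM), *Lamb1* (46.9 ± 7.30 FPKM), *Agrn* (38.2 ± 3.64 FPKM), *Lamc1* (36.9 ± 3.66 FPKM) and *Hspg2* (34.6 ± 6.61 FPKM). *Nid1* and *Lamb1* lay within each other's spread, as did *Agrn*, *Lamc1* and *Hspg2*. Bud by bud, *Lamb1* was above *Agrn*, and *Agrn* above *Lamc1*, in each of the 5 WT buds. The leading laminin chains, *Lama1*, *Lamb1* and *Lamc1*, are those of laminin-111, a laminin of early embryos. At the other end, 8 members had a mean below 0.5 FPKM over the 8 buds and were not tested: *Lama3*, *Lamb3*, *Lamc3*, *Itga7*, *Itga10*, *Itga11*, *Itgb6* and *Itgb7*. *Lama3* and *Lamb3*, chains of laminin-332 of stratified epithelia, were at 0 to 0.147 FPKM and at 0.0510 to 0.589 FPKM over all 8 buds. *Itgb6*, a beta subunit of epithelia that pairs with *Itgav*, was at 0 to 0.145 FPKM in WT buds and at 0.0215, 0.0401 and 0.307 FPKM in *Lats1/2*-null buds. *Itga10* was closest to the limit, with means of 0.492 FPKM in WT and 0.444 FPKM in *Lats1/2*-null buds. *Itga11* reached at most 0.563 FPKM, and *Lamc3*, *Itga7* and *Itgb7* at most 0.275, 0.127 and 0.266 FPKM.

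**Figure D1:**
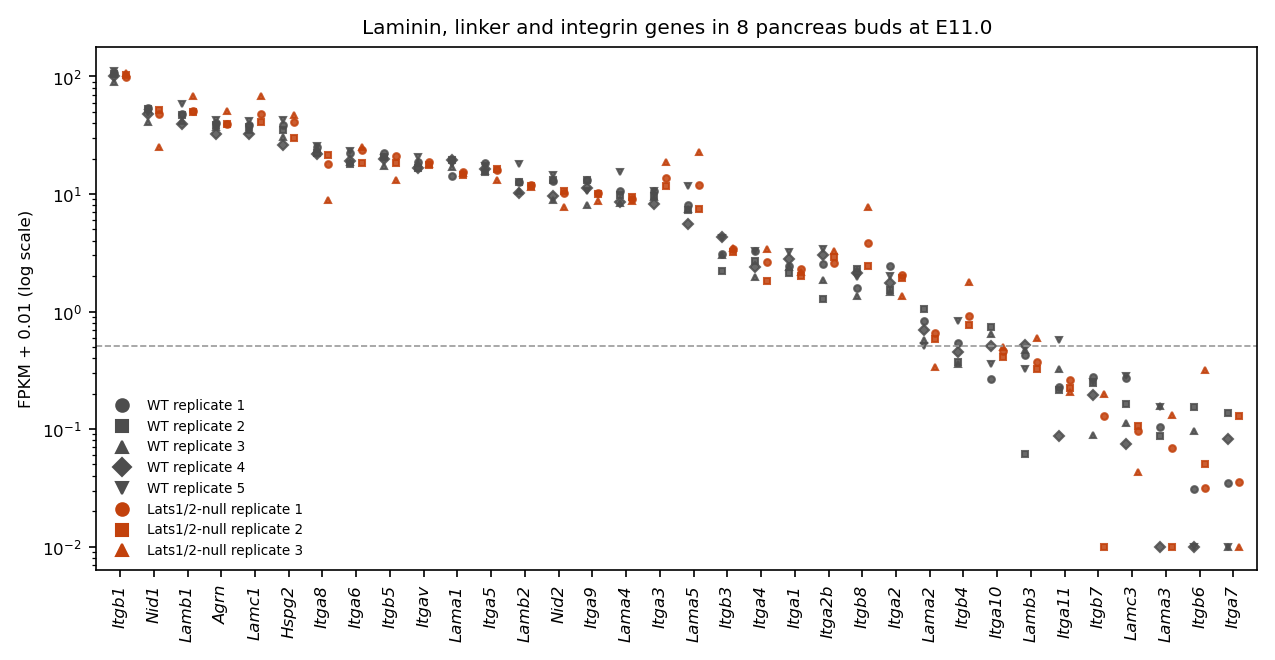
FPKM plus 0.01 (log scale) of the 34 genes in each of the 8 buds, ordered by the WT mean, with WT in grey and *Lats1/2*-null in orange and the dashed line at the limit of 0.5 FPKM used for testing. The orange triangles of *Lats1/2*-null bud 3 lie apart from the other buds for *Nid1*, *Itga8*, *Itgb8*, *Lama5* and *Lamc1*, and *Itgb1* is near 100 FPKM in every bud.

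Between genotypes, the group as a whole was not shifted. The median log2 fold change over the 26 tested members was -0.02 (12 higher and 14 lower in *Lats1/2*-null), beside -0.01 over all 13777 genes tested, and it was 0.01 (14 higher and 12 lower) without *Lats1/2*-null bud 3. None of the 26 had an adjusted p under 0.05 in limma, where 0.0145% of all tested genes did, and the lowest adjusted p of a member was 0.2497. At an unadjusted p under 0.05, 4 members were higher in *Lats1/2*-null buds: *Lamc1*, *Itga3*, *Itgb4* and *Itgb8*, against 6.29% of all tested genes. A single member, *Itga8*, was lower at that level, against 4.99% of all tested genes. The values of *Itga3* and *Itgb8* in *Lats1/2*-null buds lay wholly above those of WT buds, which held for 4.46% of all genes, and those of *Itga8* lay wholly below, which held for 3.06%. Together the 5 genes were 19.2% of the tested members, beside 11.3% of all genes tested. Without *Lats1/2*-null bud 3, 4 members (*Lamc1*, *Itga3*, *Itgb8* and *Itga8*) had an unadjusted p under 0.05, or 15.4%, beside 5.70% of all genes. The same 3 genes did not overlap, 2 higher and 1 lower of 26. This stands beside 748 higher and 649 lower of all 13699 genes tested without that bud. By class, the median log2 fold change was -0.10 over 7 laminin chains, -0.06 over 4 linkers, -0.04 over 10 integrin alpha subunits and 0.03 over 5 integrin beta subunits. Without bud 3 these medians were -0.08, 0.03, -0.02 and 0.01.

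**Figure D2:**
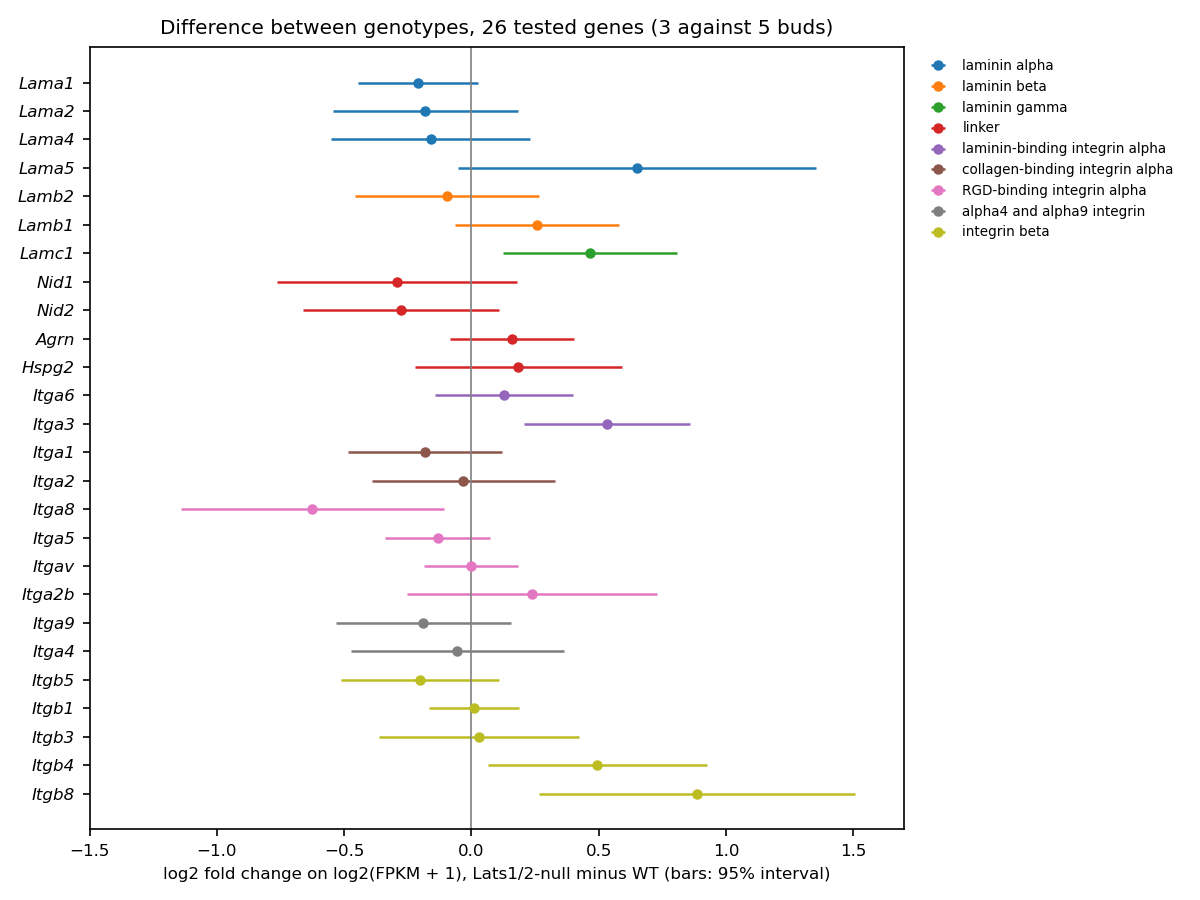
Log2 fold change of each tested gene on the log2(FPKM + 1) scale, *Lats1/2*-null (n = 3) minus WT (n = 5), with 95% intervals, in order of role. The intervals of *Lamc1*, *Itga3*, *Itgb4* and *Itgb8* lie above 0 and that of *Itga8* lies below 0, without adjustment for the number of genes tested.

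Among the laminin chains, *Lamc1*, the gamma chain of nearly all laminins outside skin (chr1:153218922-153332786), showed the clearest difference. Its levels were 38.4, 37.1, 35.0, 32.2 and 41.9 FPKM in WT buds 1 to 5 and 47.5, 41.2 and 68.4 FPKM in *Lats1/2*-null buds 1 to 3. Bud 2 lay just under the highest WT bud, and buds 1 and 3 lay above all WT buds. The log2 fold change was 0.47 ± 0.15 (SE; limma, adjusted p = 0.313), and 0.26 without bud 3. An exact permutation test of *Lamc1* alone gave a two-sided p of 0.0357. *Lama5*, the alpha chain that replaces *Lama1* in many epithelia later in development (chr2:180176373-180225904), was at 8.04, 7.37, 7.41, 5.52 and 11.7 FPKM in WT buds and at 12.0, 7.52 and 22.7 FPKM in *Lats1/2*-null buds. The groups overlapped, with a log2 fold change of 0.65 ± 0.31 (SE; limma, adjusted p = 0.495) that was 0.26 without bud 3. *Lamb1*, the partner of both in laminin-111 and laminin-511, had the same ordering, with 39.7 to 58.3 FPKM in WT buds and 50.7, 49.6 and 68.4 FPKM in *Lats1/2*-null buds (log2 fold change 0.26, adjusted p = 0.555 from limma, and 0.11 without bud 3). *Lama1* was at 14.1, 19.4, 16.9, 19.5 and 18.0 FPKM in WT buds and at 15.4, 14.4 and 15.2 FPKM in *Lats1/2*-null buds, a log2 fold change of -0.21 (adjusted p = 0.514 from limma). All 3 *Lats1/2*-null buds were under 4 of the WT buds and above WT bud 1, the lowest. *Lama2*, the alpha chain of muscle and nerve, was low, at 0.499 to 1.05 FPKM against 0.328 to 0.647 FPKM. *Lama4*, of vessel and mesenchymal basement membranes, was at 8.35 to 15.4 FPKM in WT buds and 8.74 to 9.40 FPKM in *Lats1/2*-null buds. *Lamb2* was at 10.2 to 18.2 FPKM against 11.5 to 11.9 FPKM. Among WT buds, the highest values of both, and of *Lamb1*, *Lamc1*, *Lama5* and *Hspg2*, were in WT bud 5. So were those of *Agrn*, *Nid2*, *Itga1*, *Itga2b*, *Itga3*, *Itga4*, *Itga6*, *Itga8*, *Itgav*, *Itgb1* and *Itgb4*. Among the tested members, those of *Nid1*, *Lama1*, *Lama2*, *Itga2*, *Itga5*, *Itga9*, *Itgb3*, *Itgb5* and *Itgb8* were in other WT buds. WT bud 5 had the highest endothelial sum, 405 FPKM, and also the highest upper quartile of FPKM of all buds, 21.5. Whether endothelial content or the scale of that library plays a part in those values was not tested.

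Since levels are per length, chains can be expressed as a share of their class. *Lama1* made up 42.0, 51.5, 50.7, 57.0 and 39.3% of alpha chain FPKM in WT buds and 41.2, 45.1 and 32.3% in *Lats1/2*-null buds. *Lama5* held 16.2 to 25.7% in WT buds, with a median of 22.2%, and 32.3, 23.6 and 48.2% in *Lats1/2*-null buds. *Lama4* accounted for 24.9 to 33.6% in WT buds and 24.5, 29.5 and 18.6% in *Lats1/2*-null buds. *Lamb1* was 75.9 to 78.9% of beta chain FPKM in WT buds and 80.5, 80.4 and 85.0% in *Lats1/2*-null buds, with no overlap. *Lamc1* was above 99% of the gamma chains in each bud. The level of *Lama5* relative to *Lama1* was 0.284 to 0.652 in WT buds and 0.784, 0.523 and 1.495 in *Lats1/2*-null buds, so it overlapped. Shares and ratios were chosen after the values had been seen and carry no test.

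**Figure D3:**
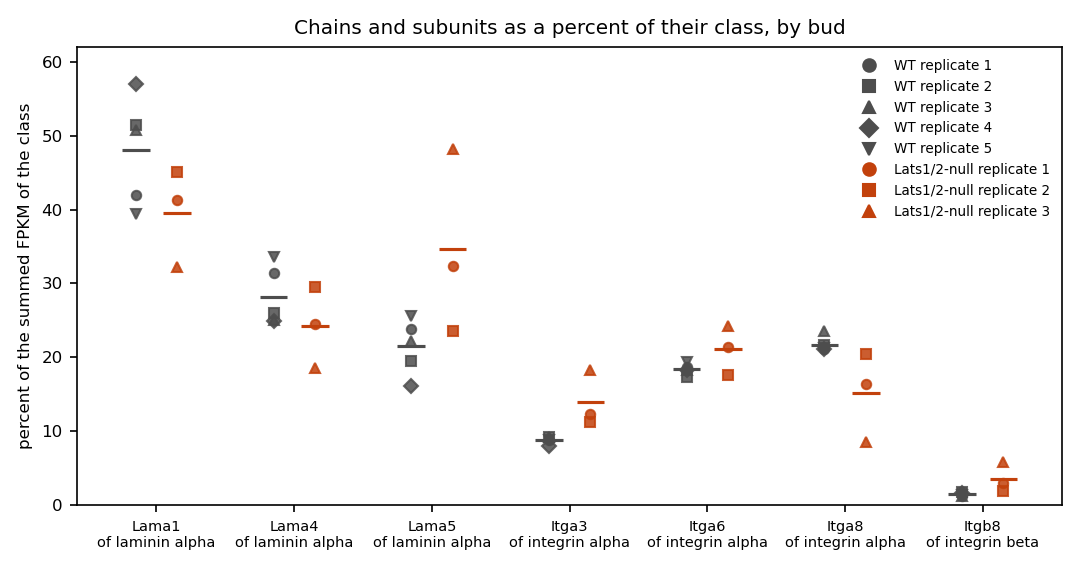
Percent of the summed FPKM of a class held by selected chains and subunits, 1 point per bud, WT in grey and *Lats1/2*-null in orange, with short lines at the group means. The share of *Itga3* is above every WT bud in all 3 *Lats1/2*-null buds, and the shares of *Itga8* are below every WT bud.

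The 4 linkers did not follow 1 direction. *Nid1*, which bridges laminin and collagen IV, was at 53.9, 53.0, 41.3, 48.0 and 49.2 FPKM in WT buds and at 47.9, 51.7 and 25.2 FPKM in *Lats1/2*-null buds. Buds 1 and 2 lay within the WT range and bud 3 under it, and the log2 fold change of -0.29 (adjusted p = 0.651 from limma) was 0.03 without bud 3. *Nid2* was at 8.88 to 14.6 FPKM against 10.1, 10.6 and 7.82 FPKM (log2 fold change -0.28, adjusted p = 0.595 from limma, and -0.15 without bud 3). *Hspg2*, the heparan sulfate proteoglycan perlecan, was at 38.9, 34.7, 30.4, 26.04 and 42.7 FPKM against 40.9, 30.1 and 47.4 FPKM, and *Agrn* was at 32.7 to 42.4 FPKM against 39.0, 39.3 and 50.6 FPKM. Their log2 fold changes were 0.18 and 0.16, and 0.04 for each without bud 3. In bud 3, *Nid1* held 19.2% of the linker FPKM, against 33.1 to 41.3% in WT buds and 34.7 and 39.3% in *Lats1/2*-null buds 1 and 2.

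Of the integrin alpha subunits, *Itga3* and *Itga6* pair with beta subunits to bind laminin. *Itga3* (chr11:95044475-95076844, minus strand) was at 10.5, 9.66, 9.50, 8.24 and 10.6 FPKM in WT buds and at 13.6, 11.7 and 18.8 FPKM in *Lats1/2*-null buds. All 3 were above each WT bud. The log2 fold change was 0.53 ± 0.14 (SE; limma, adjusted p = 0.2497), and 0.35 without bud 3. Over the alternatives the adjusted p from limma ranged from 0.0681 to 0.682, and the exact two-sided permutation p of 0.0179 is the smallest that 56 splits allow. That p restates the lack of overlap and is not adjusted for the number of genes. *Itga6* was at 22.4, 18.0, 18.9, 19.0 and 23.4 FPKM against 23.5, 18.4 and 25.1 FPKM, and the groups overlapped (log2 fold change 0.13, 95% interval -0.14 to 0.40, and 0.04 without bud 3). *Itga3* relative to *Itga6* was 0.434 to 0.536 in WT buds and 0.577, 0.637 and 0.750 in *Lats1/2*-null buds. *Itga8*, a receptor for nephronectin and other RGD ligands found on mesenchymal cells (chr2:12106632-12301985, minus strand), was at 25.3, 22.5, 24.3, 21.9 and 25.7 FPKM in WT buds and at 18.0, 21.6 and 8.81 FPKM in *Lats1/2*-null buds. *Lats1/2*-null bud 2 was under the lowest WT bud by 0.37 FPKM, and buds 1 and 3 were lower still. The log2 fold change was -0.63 ± 0.23 (SE; limma, adjusted p = 0.356), and -0.27 without bud 3. Its exact two-sided permutation p was the same 0.0179, with the same limits. *Itga8* was 21.1 to 23.5% of alpha subunit FPKM in WT buds and 16.4, 20.5 and 8.52% in *Lats1/2*-null buds, while *Itga3* was 7.93 to 9.26% in WT buds and 12.3, 11.2 and 18.2% in *Lats1/2*-null buds. The summed FPKM of these 13 alpha subunits was 103 to 121 in WT buds and 103 to 110 in *Lats1/2*-null buds.

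The remaining alpha subunits overlapped between genotypes. *Itgav*, which pairs with *Itgb1*, *Itgb3*, *Itgb5*, *Itgb6* and *Itgb8*, was at 16.5 to 20.7 FPKM in WT buds and 17.8 to 18.7 FPKM in *Lats1/2*-null buds. Its log2 fold change of -0.0012 was the smallest among the tested members, with a 95% interval of -0.19 to 0.18. *Itga5*, the fibronectin receptor, was at 15.4 to 18.5 FPKM against 13.2 to 16.2 FPKM, and *Itga9*, which binds tenascin C, at 8.03 to 13.3 FPKM against 8.69 to 10.2 FPKM. The collagen receptors *Itga1* and *Itga2* were at 2.11 to 3.23 and 1.47 to 2.45 FPKM in WT buds, and at 1.99 to 2.31 and 1.35 to 2.04 FPKM in *Lats1/2*-null buds. *Itga4*, of blood and neural crest cells, was at 1.94 to 3.30 FPKM against 1.82 to 3.37 FPKM. *Itga2b*, of platelets and megakaryocytes, was at 1.26 to 3.36 FPKM against 2.58 to 3.29 FPKM, and its partner *Itgb3* was at 2.22 to 4.31 against 3.205 to 3.49 FPKM. Markers of megakaryocytes and platelets, 10 in all (median log2 fold change 0.04, and -0.08 without bud 3), summed to 25.4 to 58.4 FPKM in WT buds and 60.9, 40.7 and 73.6 FPKM in *Lats1/2*-null buds.

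The beta subunits include the most abundant member and the one with the largest log2 fold change. *Itgb1* (chr8:128685654-128733579, plus strand) was at 107.5, 105.8, 88.9, 100.4 and 111.8 FPKM in WT buds and at 99.2, 103.8 and 106.7 FPKM in *Lats1/2*-null buds. The log2 fold change was 0.01, with a 95% interval of -0.17 to 0.19. *Itgb1* held 78.8 to 80.3% of beta subunit FPKM in WT buds and 77.2, 80.7 and 79.9% in *Lats1/2*-null buds. *Itgb8*, which with *Itgav* binds latent TGF-beta and frees it (chr12:119162803-119238276, minus strand), was at 1.56, 2.31, 1.35, 2.12 and 1.96 FPKM in WT buds and at 3.796, 2.43 and 7.79 FPKM in *Lats1/2*-null buds. Bud 2 was above the highest WT bud by 0.12 FPKM. The log2 fold change was 0.89 ± 0.27 (SE; limma, adjusted p = 0.298), and 0.52 without bud 3, with an exact two-sided permutation p of 0.0179. *Itgb4*, which pairs with *Itga6* in hemidesmosomes, was low, at 0.534, 0.360, 0.348, 0.445 and 0.815 FPKM in WT buds and 0.902, 0.758 and 1.77 FPKM in *Lats1/2*-null buds. Bud 2 was under WT bud 5, the groups overlapped, and the log2 fold change of 0.49 ± 0.19 (SE; limma, adjusted p = 0.384) was 0.29 without bud 3. The unadjusted p of *Itgb4* was above 0.05 without WT bud 2, 3 or 4 and without *Lats1/2*-null bud 3. Its WT mean of 0.501 FPKM is next to the limit for testing. *Itgb5*, a vitronectin receptor subunit, was at 17.4 to 22.2 FPKM in WT buds and 21.0, 18.5 and 13.2 FPKM in *Lats1/2*-null buds. The sum over these 7 beta subunits was 111 to 139 FPKM in WT buds and 129 to 134 FPKM in *Lats1/2*-null buds.

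The 3 *Lats1/2*-null buds were not alike, for these genes or for the markers. *Lats1/2*-null bud 3 had the highest value of *Lamc1*, *Lamb1*, *Lama5*, *Itga3*, *Itgb4* and *Itgb8* and the lowest of *Nid1*, *Nid2*, *Itga8* and *Itgb5*, and *Lats1/2*-null bud 2 was nearest to the WT buds for *Lamc1*, *Itga3*, *Itgb4*, *Itgb8* and *Itga8*. The epithelial sum had the same order, 484 FPKM in bud 2, 558 FPKM in bud 1 and 1174 FPKM in bud 3. The 10 pancreatic progenitor markers (median log2 fold change 0.70, and 0.46 without bud 3) summed to 108 to 159 FPKM in WT buds and to 241, 176 and 441 FPKM in *Lats1/2*-null buds. The part of epithelial, progenitor, mesenchymal and endothelial content in the results for these genes was not tested. Of the other lists, the median log2 fold change was -0.22 for smooth muscle and pericytes (sum 53.2 to 67.5 against 49.0 to 52.6 FPKM), -0.48 for mesothelium (7.99 to 17.2 against 4.86 to 8.89 FPKM), 0.31 for nerve and neural crest (27.5 to 35.2 against 31.2 to 58.2 FPKM), 0.14 for leukocytes (18.6 to 37.2 against 29.8 to 40.0 FPKM), 0.31 for red blood cells (2573 to 15291 against 7778 to 9839 FPKM) and 0.48 for liver (92.4 to 161 against 122 to 357 FPKM). Without bud 3 these medians were -0.23, -0.38, 0.11, 0.31, 0.30 and 0.06, in the same order. No marker list had a gene at 0 in all 8 buds.

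**Figure D4:**
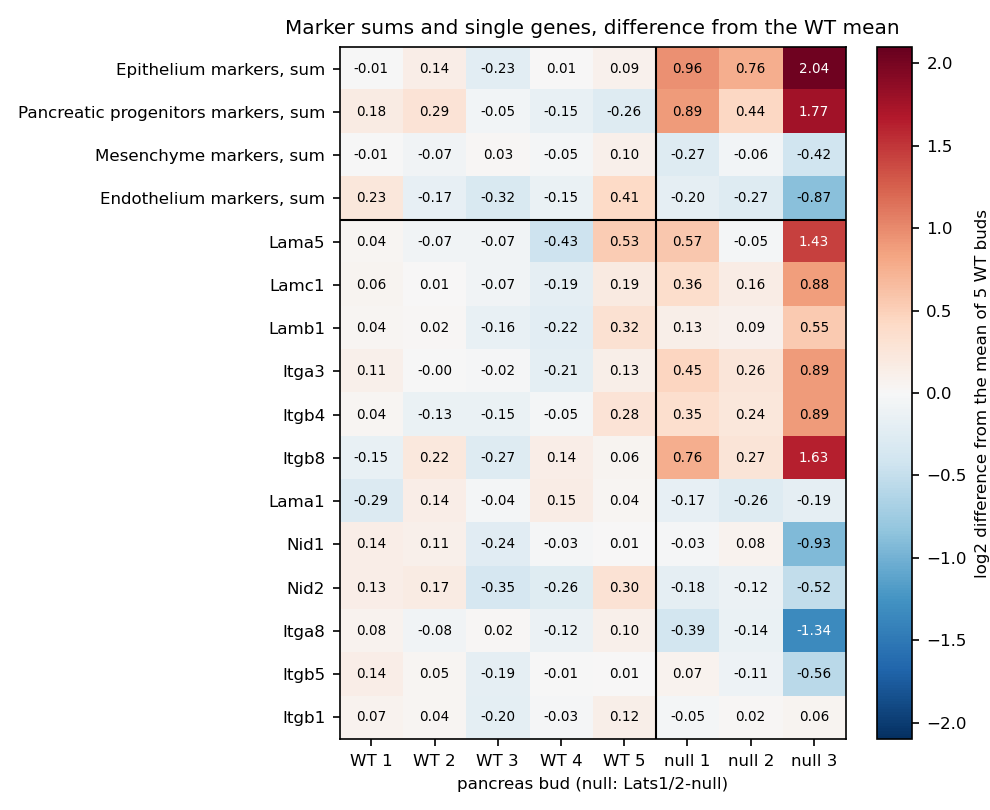
Log2 difference of each bud from the mean of the 5 WT buds, for the summed FPKM of 4 marker lists (top, on log2 of the sum) and for 12 genes (below, on log2(FPKM + 1)), with red above and blue below the WT mean. *Lats1/2*-null bud 3 is the darkest column in both blocks.

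The same pathway outside these families was sampled with lists, whose counts at an unadjusted p under 0.05 stand beside 6.29% higher and 4.99% lower of all tested genes. Their counts without *Lats1/2*-null bud 3 stand beside 481 higher and 300 lower of all 13699 genes tested then. That is 5.70% of all genes, beside 11.3% with all 8 buds, so fewer genes passed at that level. At an adjusted p under 0.05 in limma more passed, 19 without that bud and 2 with all 8. Of 25 other basement membrane genes, 21 were tested, with 3 higher and 3 lower at that level, and 3 and 0 without *Lats1/2*-null bud 3. The 3 with the smallest p were *Tinagl1*, a secreted matrix protein (2.51 ± 0.589 FPKM in WT and 13.9 ± 6.82 FPKM in *Lats1/2*-null buds, adjusted p = 0.0631 from limma), *Matn2*, a matrix adaptor (log2 fold change 0.89), and *Smoc1*, a calcium-binding basement membrane protein (0.56, and 0.35 without bud 3). Of the 21, 4 were higher and 0 lower without overlap between genotypes, these 3 among them. Over all genes tested the shares were 4.46% and 3.06%. In the next 3 lists, the counts higher and lower without overlap were 0 and 0 of 9, 1 and 1 of 11, and 2 and 1 of 22. Of 10 other laminin receptors and hemidesmosome genes, 9 were tested, with 1 higher and 1 lower, and 0 of each without bud 3. They were *Sdc4* (log2 fold change 0.40, and 0.18 without bud 3) and *Sdc2* (-0.33), heparan sulfate syndecans, and the next was *Bcam*, a receptor for the laminin alpha 5 chain (-0.25, unadjusted p = 0.0629 from limma). Of 12 other integrin ligands, 11 were tested, with 1 higher and 3 lower, and 1 and 2 without bud 3. The smallest p values belonged to *Spp1*, osteopontin, an RGD ligand (log2 fold change 3.66, and 3.12 without bud 3), *Fbn2*, a fibrillin (-0.58 and -0.35), and *Tnc*, tenascin C (-0.77 and -0.26). Of 24 cytoplasmic integrin adhesion genes, 22 were tested, with 4 higher and 1 lower, and 2 and 0 without bud 3. They were led by *Fermt1*, an epithelial integrin activator (log2 fold change 0.98), *Actn4*, an actin crosslinker (0.36, and 0.22 without bud 3), and *Tns3*, a tensin (-0.23). With all 8 buds weighted equally and 1 FPKM added, none of the genes in these 4 lists had an adjusted p under 0.05 in limma. Under alternative settings the adjusted p from limma was as low as 0.0014 for *Spp1*, 0.0059 for *Tinagl1* and 0.046 for *Matn2*, so the first 2 and, with array weights, *Matn2* passed the threshold in some of them.

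TEAD factors, the DNA-binding partners of YAP1 and TAZ, bind a motif whose core is GGAATG, or CATTCC on the other strand. RefSeq promoter windows of GRCm38.p6, 250 bases before to 50 after each start, were given for 24 of the 34 genes, 28 windows in all. The motif was in 4 of them, or 14.3%, beside 14.7% of all 32851 windows. The 4 were one window each of *Lamb3*, *Nid1*, *Itga10* and *Itgb1*. The windows of *Itga3*, *Itgb8* and *Itga8*, the 3 genes whose groups did not overlap, did not contain these letters, and *Lamc1* and *Itgb4* were not in the table. For those 3 genes, and for *Itgb1* and *Nid1*, which hold the motif, the bases before the outermost RefSeq start are printed 5′ to 3′ on the strand of the gene, with capitals marking the motif.
Itga3 upstream of its start, chr11:95076845-95076964, minus strand: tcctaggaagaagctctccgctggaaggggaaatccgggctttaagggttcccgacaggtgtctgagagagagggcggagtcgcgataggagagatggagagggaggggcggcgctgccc
Itgb8 upstream of its start, chr12:119238277-119238526, minus strand: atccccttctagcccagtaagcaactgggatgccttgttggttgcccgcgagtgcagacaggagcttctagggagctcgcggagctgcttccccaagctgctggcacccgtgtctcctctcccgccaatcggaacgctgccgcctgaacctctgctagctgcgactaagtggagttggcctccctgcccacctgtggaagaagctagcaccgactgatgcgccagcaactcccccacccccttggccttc
Itga8 upstream of its start, chr2:12301986-12302194, minus strand: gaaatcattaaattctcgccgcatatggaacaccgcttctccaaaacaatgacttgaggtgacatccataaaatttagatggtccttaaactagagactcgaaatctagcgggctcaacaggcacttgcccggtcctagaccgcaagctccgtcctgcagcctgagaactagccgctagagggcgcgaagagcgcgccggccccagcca
Itgb1 upstream of its start, chr8:128685404-128685653, plus strand: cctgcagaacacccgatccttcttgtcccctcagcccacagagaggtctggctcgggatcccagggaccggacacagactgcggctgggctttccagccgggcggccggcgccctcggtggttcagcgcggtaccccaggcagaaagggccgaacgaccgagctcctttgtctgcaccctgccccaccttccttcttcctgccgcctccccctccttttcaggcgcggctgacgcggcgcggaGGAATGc
Nid1 upstream of its start, chr13:13437352-13437601, plus strand: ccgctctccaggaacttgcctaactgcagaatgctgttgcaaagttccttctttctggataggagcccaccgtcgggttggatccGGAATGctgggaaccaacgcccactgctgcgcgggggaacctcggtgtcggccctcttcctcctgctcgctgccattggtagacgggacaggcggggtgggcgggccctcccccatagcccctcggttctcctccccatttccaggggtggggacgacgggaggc
In *Itgb1* the match begins 7 bases before the start and in *Nid1* 165 bases before it. GC content of the members' windows had a median of 59.3% (38.3 to 83.3%), beside 52.7% over all windows, and a median of 12.5 CpG sites, beside 7. A match is a description of the letters, and no match says nothing about binding elsewhere.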

How the data were processed

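Total RNA of 8 pancreas buds, 5 WT and 3 *Lats1/2*-null, was sequenced at E11.0, and groups came from the sample labels. FPKM per gene were used as the authors deposited them. According to the methods and the submitters' processing notes, reads were trimmed with cutadapt 1.12, aligned to GRCm38 with TopHat2 2.1.0 and quantified with Cuffdiff 2.2.1. Quantile normalization is stated, yet upper quartiles of the columns ran from 19.8 to 21.5 FPKM. FPKM hold no counts. At 1000 bases, 1 fragment was worth 0.1325 FPKM in WT replicate 5 and 0.098 to 0.106 FPKM in the other 7, so low values are less precise in WT replicate 5.

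The 13777 genes whose mean over the 8 libraries reached 0.5 FPKM were tested on log2(FPKM + 1) with limma 3.58.1 (mean-variance trend) in R 4.3.3, with Benjamini-Hochberg adjustment over all of them and a threshold of 0.05. The added 1 FPKM understates the change of low genes. Cuffdiff needs aligned reads and was not run. Single members were also given exact two-sided permutation tests over 56 splits. The script was tested on simulated data. Members and lists were chosen with earlier results of these data known. The text names all 34 members, *Lats1* and *Lats2*, and the 3 genes of each further list with the smallest p. The alternatives were a pseudocount of 0.1 FPKM, array weights, no trend, a minimum mean of 2 FPKM or none, median-ratio scaling, quantile normalization, a replicate block and each library left out. Each library is 1 bud, and the methods name littermates as controls without saying which buds shared a litter. Coordinates are those of RefSeq on GRCm38.p6, because some loci in the deposited table span neighbouring genes. Python 3.11.15 with matplotlib 3.10.9 made the figures.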

Additional observations from a re-analysis of the deposited data

How the results depend on the processing

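No member had an adjusted p under 0.05 in limma under any of the 16 alternatives, where the lowest was 0.0681. Without *Lats1/2*-null replicate 3, 19 of all 13699 genes tested did, beside 2 of 13777 with all buds. The median log2 fold change over the tested members ran from -0.063 to 0.033 over the alternatives, beside the -0.02 given above. Counts at an unadjusted p under 0.05 were 4 higher and 1 lower. With single buds left out, the higher count ran from 3 to 6 and the lower count from 1 to 3. The counts without overlap, 2 higher and 1 lower, ran from 2 to 6 and from 1 to 2, and the higher count was 5 without WT replicate 5 and 6 without *Lats1/2*-null replicate 2. The lower count at an unadjusted p under 0.05 was 3 without WT replicate 3. A lack of overlap is easier to reach with fewer buds. Over all genes it held for 614 higher and 421 lower of 13777 with all buds. Without *Lats1/2*-null replicate 3 it held for 748 and 649 of 13699. Counts over all genes are not given for the other buds left out, so these ranges are not a result about the members. Deviations of same-numbered buds correlated at 0.085, -0.097 and 0.069, within the -0.11 to 0.14 of buds with unlike numbers. These values cannot tell whether any buds shared a litter. With the replicate number as a block the higher count was 2 (*Lamc1* and *Itga3*) and the 1 lower gene was *Nid2* in place of *Itga8*. Of 26 tested members, 19 kept their sign in every alternative. The other 7 changed sign in at least 1: leaving out single buds gave -0.17 to 0.026 for *Lamb2*, -0.48 to 0.026 for *Nid1*, -0.10 to 0.082 for *Itga2*, -0.21 to 0.11 for *Itga4*, -0.033 to 0.043 for *Itgav*, -0.042 to 0.040 for *Itgb1* and -0.074 to 0.11 for *Itgb3*. Array weights gave 0.043 for *Itga2*, 0.042 for *Itgav* and -0.027 for *Itgb1*, quantile normalization 0.0085 for *Itgav* and -0.0056 for *Itgb3*, and median-ratio scaling and the block 0.0046 and 0.016 for *Itgav*. The cause was not tested. The values carry no counts, so the counting error behind a low level is not given.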
